A study of Caenorhabditis elegans with 2 samples.

Results

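The proteasome subunit genes of Caenorhabditis elegans were taken as the protein-coding genes of the WBcel235 annotation whose names begin with pas-, pbs-, rpn- or rpt-. They numbered 33 of 19973 protein-coding genes on the nuclear chromosomes. The core particle had 14 of them, with 7 pas genes of the alpha ring and 7 pbs genes of the beta ring. The regulatory particle had 19, with 10 genes of the base and 9 of the lid. Binding was measured by chromatin immunoprecipitation and sequencing (ChIP-seq) with an antibody against GFP in whole young adults aged 64 hours. The worms were of strain RW12264, which carries st12264[Y53G8AR.9::TY1::EGFP::3xFLAG] on chromosome III, a CRISPR insertion of the tag at the gene's own locus, and were synchronised as starved L1 larvae after bleaching. Y53G8AR.9 is annotated as a CCCH zinc finger protein gene. There was 1 group with 2 biological replicates and no other genotype, treatment or stage, so nothing was compared between conditions. All tissues of the animal were pooled, so binding in fewer cells and weaker binding in each cell cannot be told apart.

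The proteasome is the protease complex that degrades proteins marked with ubiquitin in the cytoplasm and nucleus. Its core particle is a barrel of alpha rings, which form the gate, and beta rings, which hold the proteolytic sites. The regulatory particle caps the barrel: the base has a ring of ATPases (rpt genes) that unfolds substrates together with scaffolds and ubiquitin receptors, and the lid holds the deubiquitinase RPN-11 among scaffolding subunits. In worms, the transcription factor form SKN-1A is released from the endoplasmic reticulum and processed by PNG-1 and DDI-1. SKN-1A is known to raise expression of these genes when the proteasome is impaired.

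Windows at the start peaks of rpn-3, rpn-2, pbs-1 and rpn-11 are given here, with a set of windows past gene ends. They are examples of the places counted below. Each covers up to 50 bp on either side of the summit (the position of highest signal in a peak), trimmed to leave out annotated UTRs. All are from the RefSeq WBcel235 genome, the same build as ce11, and are written 5′ to 3′ along the member gene's strand. Capitals mark motif matches, and lower case throughout means that none of the motifs searched was marked.
rpn-3 start, III:8447115-8447215, forward strand: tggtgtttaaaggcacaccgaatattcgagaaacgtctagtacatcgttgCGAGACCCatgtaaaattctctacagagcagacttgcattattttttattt
rpn-2 start, III:6198808-6198908, forward strand: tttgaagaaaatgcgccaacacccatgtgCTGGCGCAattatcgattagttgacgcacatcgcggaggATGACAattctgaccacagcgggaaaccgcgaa
pbs-1 start, IV:1709899-1709999, reverse strand: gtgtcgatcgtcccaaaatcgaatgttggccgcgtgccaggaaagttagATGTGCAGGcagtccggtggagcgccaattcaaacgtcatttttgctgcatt
rpn-11 start, II:4044547-4044636, reverse strand: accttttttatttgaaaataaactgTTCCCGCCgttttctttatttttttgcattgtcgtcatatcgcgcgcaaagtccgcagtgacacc
rpn-11 end, II:4042828-4042928, reverse strand: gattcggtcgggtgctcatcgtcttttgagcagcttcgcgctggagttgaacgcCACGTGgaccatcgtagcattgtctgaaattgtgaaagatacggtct
pbs-1 end, IV:1708466-1708534, reverse strand: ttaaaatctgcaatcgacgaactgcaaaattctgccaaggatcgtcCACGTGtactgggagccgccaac
rpn-9 end, II:11237204-11237304, reverse strand: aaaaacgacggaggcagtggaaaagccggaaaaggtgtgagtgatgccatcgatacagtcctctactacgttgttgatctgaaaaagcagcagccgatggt
rpt-1 end, V:11980265-11980365, reverse strand: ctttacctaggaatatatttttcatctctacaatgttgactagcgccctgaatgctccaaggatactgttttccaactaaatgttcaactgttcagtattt
rpn-3 end, III:8449347-8449408, forward strand: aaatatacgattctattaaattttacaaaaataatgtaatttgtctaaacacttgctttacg
In the rpn-3 start window the capitals are CGAGACCC, and in the rpn-2 start window they are CTGGCGCA and the reverse complement of TGTCAT, a SKN-1 type motif. The pbs-1 start window has ATGTGCAGG, the rpn-11 start window has the E2F-like TTCCCGCC, and the end windows of rpn-11 and pbs-1 each have the E box CACGTG. The motifs in the rpn-3, rpn-2 and pbs-1 start windows, other than TGTCAT, were chosen after the sequences had been seen.

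Peaks lay past the 3′ end in more proteasome genes than near the start. A summit of the conservative series-wide peak list, the authors' list of peaks reproducible between the replicates, lay 1 to 300 bp past the 3′ end of 20 of the 33 genes (60.6%, exact 95% Clopper-Pearson interval 42.1% to 77.1%). Over all coding genes the same zone held a summit at 908 of 19973, or 4.55%. Within 500 bp of a coding transcript start, 7 of the 33 had a summit (21.2%, interval 8.98% to 38.9%), against 1299 of all coding genes, or 6.5%. No proteasome gene is on the X chromosome, and the autosomal coding genes alone gave 4.87% at ends and 7.09% at starts. Both places were occupied in 6 of the 33 (18.2%, interval 6.98% to 35.5%), against 1.57% of all coding genes. Either place was occupied in 21 (63.6%, interval 45.1% to 79.6%), against 9.48%. In the shorter thresholded lists of single replicates, end summits were at 10 members (30.3%) in replicate 1 and 5 (15.2%) in replicate 2, against 2.54% and 2.25% of all coding genes. Start summits were at 6 (18.2%) and 3 (9.09%), against 3.71% and 3.39%. Genes were not treated as replicates, and these intervals cover counting error only.

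Most of the members' end summits lay 100 to 299 bp past the end. Of the 33 genes, 10 (30.3%) had a summit 100 to 199 bp past the end and 9 (27.3%) had one 200 to 299 bp past it, against 2.13% and 1.34% of all coding genes. The 100 bp bin that starts at the end held a summit in 1 member (3.03%), against 1.19% of all coding genes, and the bin from 300 to 399 bp held none, against 0.686%. On the inner side of the end, no member had a summit in the last 300 bp of the gene (0 of 33, upper limit 10.6%), against 1.64% of all coding genes. With shares this low over all coding genes, counts of 0 among 33 members do not set the members apart. The 20 end summits lay 12 to 298 bp past the end with a median of 194 bp, and the 884 summits past the ends of all coding genes had a median of 152 bp. Sonicated fragments were 200 to 800 bp long, per the labels, and 85.7% of the conservative peaks were 320 bp wide, which limits how exactly a summit marks a position.

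**Figure D1:**
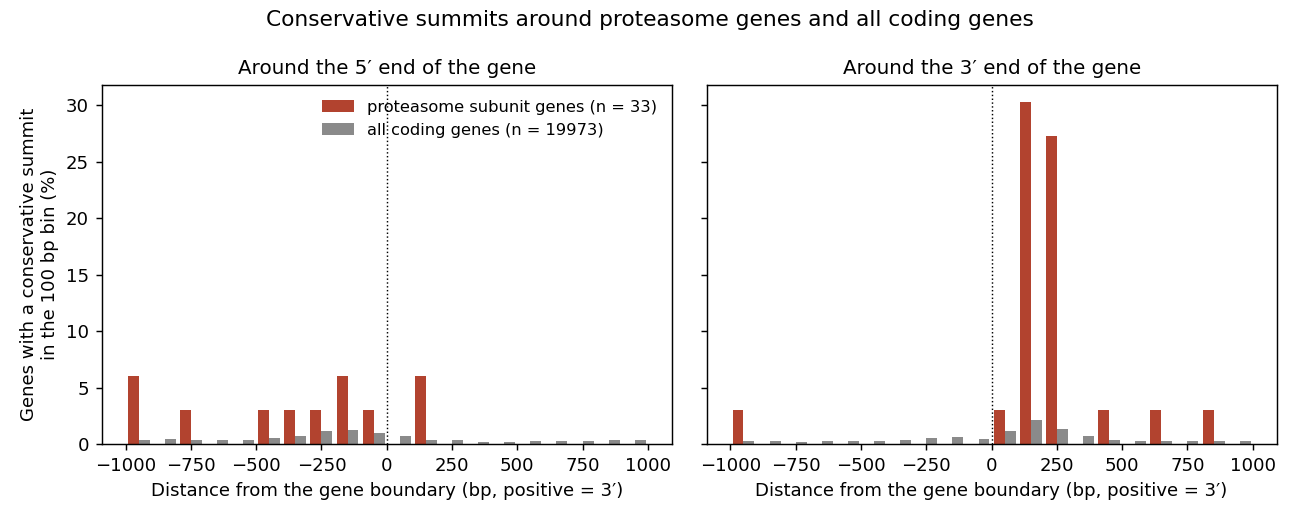
Share of genes (%) with a conservative summit in each 100 bp bin, from 1000 bp before to 1000 bp after the 5′ end (left panel) and the 3′ end (right panel) of the gene, for the 33 proteasome genes (red) and all 19973 coding genes (grey). The members' bars past the 3′ end reach 30.3% and 27.3%, whereas no bin around the 5′ end exceeds 6.06%.

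The signal is the value that the authors' peak caller gave, on a scale that is not given in the sources used here. Whether lists of the replicates together and of each replicate share a scale is not stated, so values are read within a list. Depth behind the values is unknown, because the deposited lists hold no read counts. Over all 2742 conservative peaks the signal ran from 2.09 to 883 with a median of 70.4.

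Among the alpha ring genes, whose products form the gate of the core particle, 2 of 7 had an end summit and 1 of 7 a start summit. The gene pas-3 had an end peak with a signal of 118 in the replicates together, and the overlapping regions of the ranked lists had 76.4 in replicate 1 and 42.5 in replicate 2. Its summit lay 200 bp past the end of pas-3 and 1 bp from the start of the neighbouring gene chp-1. The gene pas-2 had an end peak of 81.2, with 56.1 in replicate 1 and 27.1 in replicate 2, in the coding sequence of D1054.3 and 175 bp from its start. Neither end could therefore be separated from a neighbour's start at this resolution. The gene pas-1 was the only member with a start summit and no end summit. Its start peak had a signal of 64.1, with 46.4 in replicate 1 and 22.0 in replicate 2, and lay 126 bp inside the gene, where it was also 233 bp past the end of rpoa-12. No conservative summit was near pas-4, pas-5, pas-6 or pas-7 at either place.

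Among the beta ring genes, 5 of 7 had an end summit and 3 of these 5 also had a start summit. The gene pbs-2, which encodes a subunit with a proteolytic site, had the strongest end peak of all members, at I:12966836-12967026. Its signal was 239, with 138 in replicate 1 and 98.96 in replicate 2, which ranked 94 of the 2742 conservative peaks. The summit was 273 bp past the end of pbs-2 and 148 bp from the start of the alpha-tubulin gene tba-2. The other 4 end peaks of this ring were much lower than that of pbs-2. The gene pbs-6 had 88.6 with 53.1 and 39.4 in replicates 1 and 2, pbs-5 had 85.8 with 48.0 and 27.8, pbs-1 had 84.1 with 50.03 and 25.9, and pbs-3 had 56.2 with 29.0 and 30.3. The summit of pbs-6 fell in the 5′ UTR of C02F5.12, 46 bp from its start, that of pbs-5 was 424 bp from the start of dus-2, and those of pbs-1 and pbs-3 fell in the coding sequences of K08D12.4 and ndx-3, more than 500 bp from another coding start.

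Start peaks of the beta ring genes belonged to pbs-5, pbs-1 and pbs-3. The gene pbs-5, which encodes the chymotrypsin-like subunit, had a start peak of 85.8, with 52.4 in replicate 1 and 31.5 in replicate 2, at 158 bp inside the gene and 269 bp past the end of K05C4.2. The gene pbs-1 had a start peak of 72.9, with 52.7 in replicate 1 and 37.4 in replicate 2, at 204 bp upstream, and a lower summit of 10.7 at 409 bp upstream. These summits stood between pbs-1 and K08D12.3, whose start was 316 bp and 111 bp away. The gene pbs-3 had a start peak of 60.1, with 50.6 in replicate 1 and 22.9 in replicate 2, inside the 3′ UTR of ulp-2. The genes pbs-4 and pbs-7 had neither a start nor an end summit.

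In the base of the regulatory particle, 7 of 10 genes had an end summit and 1 had a start summit. The scaffold gene rpn-2 had both, with an end peak of 85.4 (49.5 in replicate 1 and 35.8 in replicate 2) and a start peak of 88.6 (57.9 and 36.9). Its start summit lay 326 bp upstream and 444 bp from the start of C23G10.7, and the end summit lay 179 bp past the gene in the coding sequence of sna-3. The other scaffold gene, rpn-1, had an end peak of 62.7, with 28.2 in replicate 1 and 37.3 in replicate 2, at 33 bp from the start of T22D1.8. The ubiquitin receptor gene rpn-10 had 63.3, with 30.06 in replicate 1 and 30.02 in replicate 2, at 41 bp from the start of B0205.12. The other ubiquitin receptor gene, rpn-13, had no summit at either place.

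Of the 6 ATPase genes of the base, 4 had an end summit and none had a start summit. End peaks were 76.9 at rpt-1, 66.3 at rpt-6, 60.2 at rpt-2 and 47.4 at rpt-3. The rpt-1 peak was narrow (83 bp), lay 219 bp past the end and was intergenic, with 28.0 in replicate 1 and 27.2 in replicate 2. The rpt-6 and rpt-3 summits fell in the coding sequences of glrx-5 and srb-11, and that of rpt-2 in the 3′ UTR of fos-1, which encodes a Fos-like transcription factor. The rpt-6 peak had 43.1 in replicate 1 and 23.5 in replicate 2, and the rpt-2 peak 40.1 and 40.7. At rpt-3 replicate 1 had 27.5 and replicate 2 had no overlapping region. The genes rpt-4 and rpt-5 had no summit.

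In the lid, 6 of 9 genes had an end summit and 2 of these 6 also had a start summit. The scaffold gene rpn-3 had the strongest start peak of all members, at III:8447088-8447233, with a signal of 236 in the replicates together, 162 in replicate 1 and 80.9 in replicate 2. It ranked 97 of the 2742 conservative peaks and lay 188 bp upstream of rpn-3 and 256 bp from the start of hsp-110, which encodes an Hsp110 chaperone on the other strand. The rpn-3 end peak had 99.2, with 45.7 in replicate 1 and 52.6 in replicate 2, only 12 bp past the end and 399 bp from the start of mrpl-32. That window is the last of those printed above and had a G+C content of 20.97% as trimmed. The deubiquitinase gene rpn-11 had an end peak of 95.9 (40.6 and 29.9) in the coding sequence of pqn-48 and a start peak of 73.4 (40.5 and 37.6) at 40 bp upstream, which was also 185 bp past the end of K07D4.2.

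The remaining lid genes with summits had them past the end alone. The gene rpn-9 had 90.6, with 46.0 in replicate 1 and 51.0 in replicate 2, at 71 bp from the start of fndc-1. The gene rpn-5 had 79.4 with 32.4 and 36.1, in the 3′ UTR of F10G7.5, and rpn-8, whose product pairs with RPN-11, had 69.3 with 38.1 and 22.2. The gene rpn-6.1 had 54.8, with 29.7 in replicate 1 and 34.6 in replicate 2, at 103 bp past its own end and 113 bp past that of let-711. Its paralogue rpn-6.2 had no summit at either place, and neither did rpn-7 or rpn-12.

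**Figure D2:**
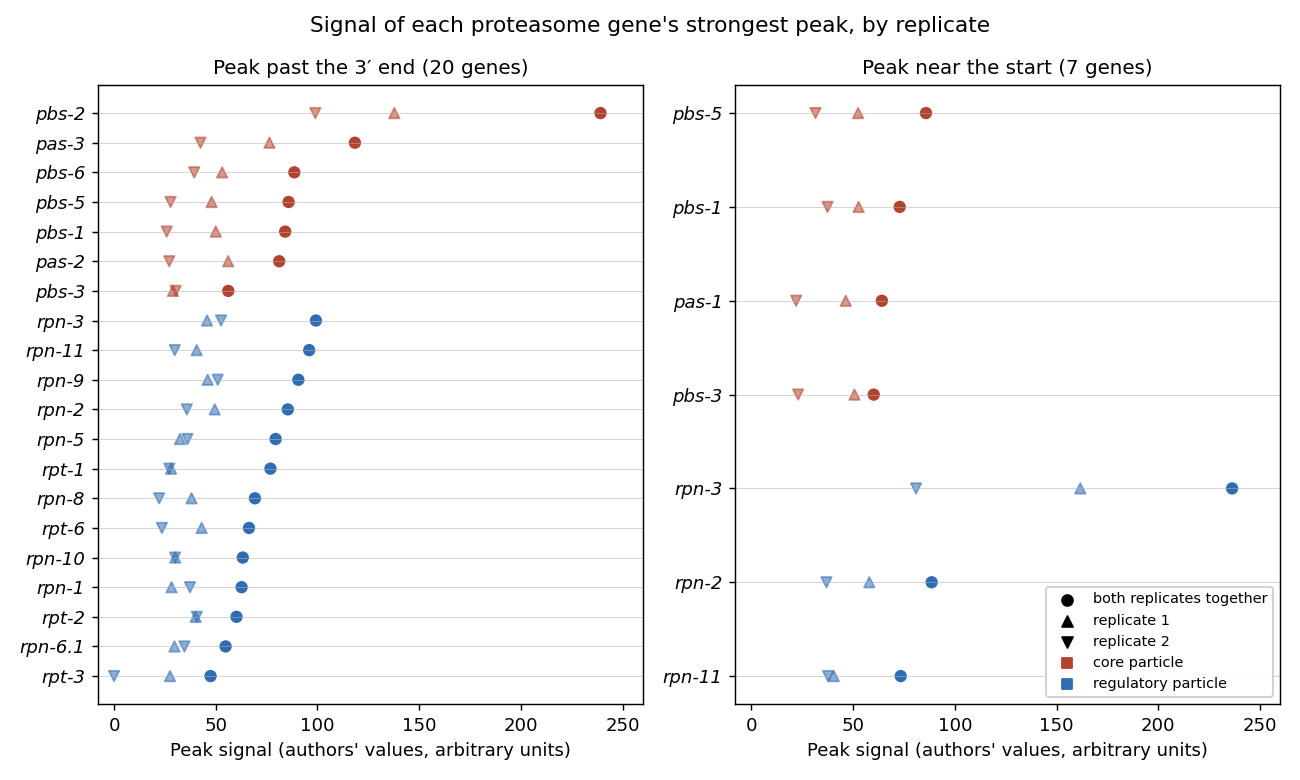
Signal (authors' arbitrary units) of each member's strongest conservative peak past the 3′ end (left, 20 genes) and near the start (right, 7 genes), with core particle genes in red and regulatory particle genes in blue. Circles give the replicates together and triangles the overlapping ranked region in each replicate, drawn at 0 where there was none (rpt-3, replicate 2), and their lists need not share a scale; among the circles only the pbs-2 end and the rpn-3 start exceed 200.

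Core and regulatory particle genes gave overlapping intervals at both places. End summits were at 7 of 14 core genes (50%, interval 23.04% to 76.96%) and 13 of 19 regulatory genes (68.4%, interval 43.4% to 87.4%). Start summits were at 4 of 14 core genes (28.6%, interval 8.39% to 58.1%) and 3 of 19 regulatory genes (15.8%, interval 3.38% to 39.6%). End signals had a median of 85.8 over the 7 core genes and 69.3 over the 13 regulatory genes, beside 75.3 over the end summits of all coding genes. The end summits lay at a median of 232 bp past core genes (136 to 298 bp) and 179 bp past regulatory genes (12 to 221 bp). Of the core end summits, 5 of 7 were within 500 bp of another coding start, and of the regulatory ones 4 of 13 were. In the lists of replicates 1 and 2, end summits were at 6 and 3 core genes and at 4 and 2 regulatory genes, and start summits at 4 and 0 core genes and at 2 and 3 regulatory genes. The difference between the particles was not tested.

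Without end summits that were also within 500 bp of another gene's start, 11 of the 33 members remained at ends, 2 of them core genes, against 2.71% of all coding genes. Annotated features under the 20 end summits were coding sequence at 13, intergenic sequence at 4, a 3′ UTR at 2 and a 5′ UTR at 1. Features were not counted under the end summits of all coding genes, so these counts do not set the members apart. These coding sequences could belong only to other genes, because the zone starts past the member's own end. Start summits that were not also past another gene's end were left at 4 members, against 4.75% of all coding genes. Those 4 were rpn-3, rpn-2, pbs-1 and pbs-3. The pbs-3 summit was kept although it lay in the 3′ UTR of ulp-2, which stands 22 bp upstream of pbs-3. It is therefore not separated from a neighbour's end.

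Most members stand close to the next gene. That gene was within 300 bp of the end at 26 of the 33 members, and 17 of these had an end summit, whereas 3 of the 7 with a more distant next gene did. Among all coding genes with a next gene, it was within 300 bp at 8576 and farther away at 11390. Over all coding genes an end summit was found at 5.89% of those with a next gene within 300 bp and 3.53% of those with a more distant one. Within 300 bp the shares were 5.05% for a next gene on the opposite strand and 7.42% for one on the same strand. The next gene was on the opposite strand at 18 members, 13 of them with an end summit, and on the same strand at 15, 7 of them with one. At any distance, an end summit was found at 4.33% of all coding genes whose next gene was on the opposite strand and 4.72% of those whose next gene was on the same strand. The gap to the next gene had a median of 88.5 bp at members with an end summit and 125 bp at those without. End summits were spread over the autosomes, with 5 at the 10 members on chromosome I, 4 of 7 on II, 6 of 8 on III, 2 of 3 on IV and 3 of 5 on V.

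In the replicates' own thresholded lists, end summits in both were found at pbs-2, pbs-6 and rpn-9, and a start summit in both at rpn-3 alone. Of the 20 conservative end peaks, 4 coincided with thresholded peaks in the 2 replicates alike, 5 with one in replicate 1 alone, 2 with one in replicate 2 alone and 9 with none in either. The 9 were those of pas-2, pbs-1, rpt-1, rpt-3, rpn-1, rpn-5, rpn-6.1, rpn-10 and rpn-11. The matching shares over all 2742 conservative peaks are not given here. The replicates' lists are shorter, with 1393 and 1276 peaks, so a conservative peak without a match need not be particular to the members. Replicate 1 alone gave end summits at pas-6 and pas-7, and replicate 2 alone gave start summits at rpn-6.2 and rpn-9; none of these 4 was in the conservative list at that place.

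The ranked lists hold weaker regions as well, and give a value to members with no conservative summit. A region lay past the end of 28 of the 33 members (84.8%) in each replicate, against 25.7% of all coding genes in replicate 1 and 25.3% in replicate 2. Near a start a region lay at 30 members (90.9%) in replicate 1 and 29 (87.9%) in replicate 2, against 49.3% and 49.0% of all coding genes. Each gene's highest signal was then ranked among the 19973 coding genes, with genes without a region tied at the bottom. In replicates 1 and 2 that tie stood at percentiles 25.3 and 25.5 for starts and 37.2 and 37.3 for ends. Percentiles at starts and ends are therefore not on the same footing. The members' median percentile at the end was 94.5 in replicate 1 and 95.4 in replicate 2, and 23 and 21 members were above the 90th percentile. At the start it was 75.5 and 82.3, with 8 and 10 members above the 90th. The core median at the end was 97.0 in replicate 1 and 94.8 in replicate 2, and the regulatory median 93.9 and 95.5.

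**Figure D3:**
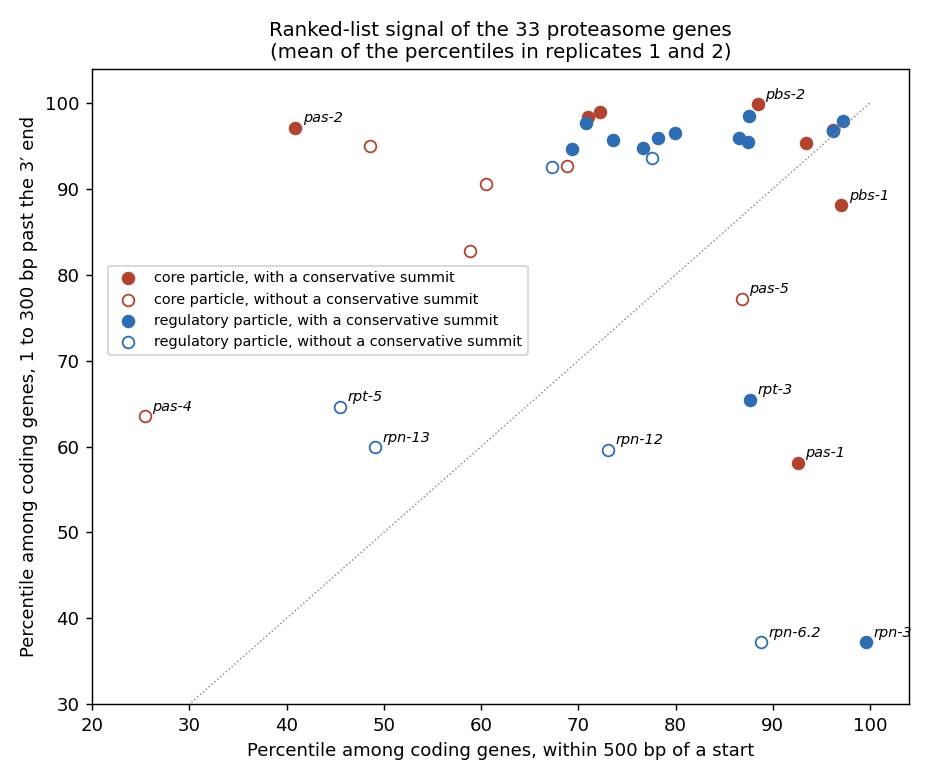
Percentile among all coding genes of each member's highest ranked-list signal within 500 bp of a start (horizontal axis) and 1 to 300 bp past the 3′ end (vertical axis), as the mean over replicates 1 and 2, with core genes in red, regulatory genes in blue, and open circles for members with no conservative summit. Most points lie above the dotted line of equal percentiles; rpn-3 lies low on the vertical axis because the replicates' ranked summits fell outside its end zone.

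Of the 12 members with neither summit, rpn-6.2 (mean start percentile 88.8), pas-5 (86.8), rpt-4 (77.6), rpn-12 (73.1) and pbs-4 (68.9) had the highest ranked signal at the start. The start signals of rpn-6.2 were 21.1 in replicate 1 and 38.9 in replicate 2, and those of pas-5 were 26.6 and 19.8. The lowest were pas-4 (25.4), with no region at the start in either replicate, rpt-5 (45.5) and pas-7 (48.5). At the end, 5 of the 12 were above a mean percentile of 90, namely pas-7 (95.04), rpt-4 (93.5), pbs-4 (92.7), rpn-7 (92.6) and pas-6 (90.5).

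The lowest score of the conservative list was 830, equal to an irreproducible discovery rate (IDR, the authors' measure of how poorly a region's rank repeats between replicates) of 0.01003. Just inside at ends were rpt-3 with a score of 839 and a signal of 47.4, rpt-1 with 853 and rpn-8 with 859. Just outside at ends were rpt-4 with 648 (IDR 0.0274, signal 63.3), rpn-7 with 644 (IDR 0.0281, signal 36.3) and pbs-4 with 559 (IDR 0.0449, signal 42.2). Of the strongest start regions, that of pas-1 was nearest inside with a score of 892, and the nearest outside were pbs-2 with 655 (IDR 0.0263), rpn-10 with 640 (IDR 0.0288), pas-5 with 611 (IDR 0.0336) and rpn-6.2 with 608 (IDR 0.0343). The regions past pas-6 and pas-7 had signals of 65.6 and 50.4 but scores of 134 and 81. By distance, pbs-1 at 298 bp was just inside the zone, and the nearest summits beyond it at members with none inside were 1418 bp past rpn-7 and 2013 bp past pas-5.

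Other complexes with many subunits are given beside the proteasome. Ribosomal protein genes had end summits at 32 of 47 for the large subunit (68.1%) and 24 of 31 for the small subunit (77.4%), and start summits at 28 (59.6%) and 19 (61.3%). The CCT chaperonin had end summits at 4 of 8 genes and start summits at 5, and the V-ATPase at 7 (35%) and 8 (40%) of 20. In the proteasome these shares were 60.6% at ends and 21.2% at starts, and its difference from the other complexes was not tested.

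**Figure D4:**
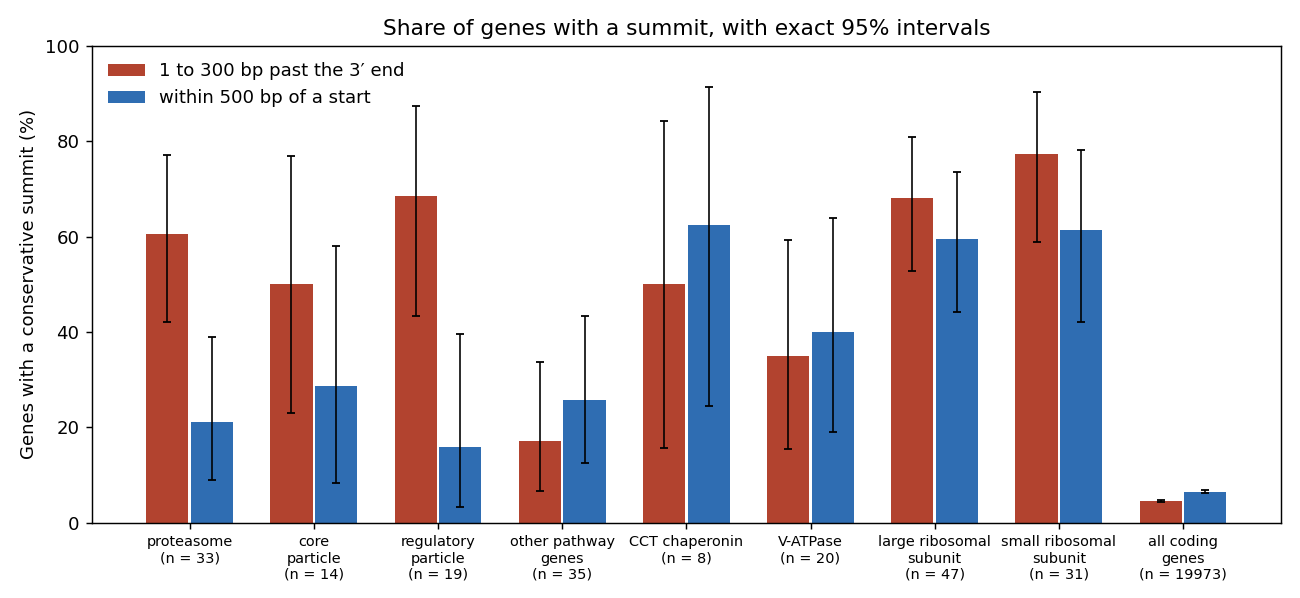
Share of genes (%) with a conservative summit 1 to 300 bp past the 3′ end (red) and within 500 bp of a start (blue), for the proteasome, its core and regulatory particles, other genes of the pathway, 4 other complexes or subunits and all coding genes, with exact 95% intervals as bars. The proteasome bars stand at 60.6% and 21.2%, and those of all coding genes at 4.55% and 6.5%.

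Other genes of the ubiquitin and proteasome pathway had fewer end summits than the proteasome genes. Of 35 such genes, 6 had an end summit (17.1%, interval 6.56% to 33.6%), against 4.55% of all coding genes. A start summit was at 9 of the 35 (25.7%, interval 12.5% to 43.3%), against 6.5% of all coding genes. Among the genes of ubiquitin and its activating enzyme, the polyubiquitin gene ubq-1 had start and end signals of 108 and 144, ubq-2 had 102 and 107, ubl-1 had an end signal of 107, and the E1 gene uba-1 had a start signal of 134. Of 8 genes of CDC48, the ATPase that extracts ubiquitinated proteins, and its cofactors, cdc-48.1 alone had a start summit, with a signal of 542, and none had an end summit. Of 9 shuttle and proteasome-bound factor genes, rad-23 had start and end signals of 14.9 and 96.5, and ecps-1 (59.8) and aip-1 (67.6) had start summits. In the SKN-1A axis of 8 genes, skn-1 had an end signal of 89.99 and wdr-23, which encodes a negative regulator of SKN-1, had start and end signals of 79.5 and 55.1, whereas png-1 and ddi-1 had neither. Of 6 COP9 signalosome genes, csn-6 alone had a start summit (57.2). With shares this low over all coding genes, few or no summits in a group this small do not set that group apart.

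Motifs were sought on both strands in the members' promoters, from 250 bp before to 50 bp after the start, and within 50 bp of summits. Of the SKN-1 type motifs, TGTCAT was in 12 of 33 member promoters (36.4%), against 16.3% of all coding promoters, and TATCAT was in 4 (12.1%), against 19.4%. TATAAA was in 10 (30.3%), against 37.9%, TGATAA in 10 (30.3%), against 30.2%, and the T-rich TTTTTTTT in 4 (12.1%), against 32.5%. CCGCCC was in 2 (6.06%), against 7.83%, CACGTG in 1 (3.03%), against 5.82%, and TTCCCGCC in the promoter of rpn-11, against 1.10%. The motif CTGCGTCTC, found in worm regions bound by many factors, was in no member promoter, against 2.93% of all coding promoters. It was in no member summit window either, beside 4.12% of all conservative summit windows and 2.15% of all end windows. At shares this low, 0 matches among the members do not set them apart. The proteasome motif of budding yeast, GGTGGCAAA, was in no member promoter, against 0.225%. A missing match says only that these letters are not in that window. Each motif was counted separately. None of them contains another whole, but some share letters, so their matches can overlap. For example, TGATAA shares TGATA with the reverse complement of TATCAT, and TTCCCGCC shares CCGCC with CCGCCC.

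Of the letters in capitals above, CACGTG was in the end windows of pbs-1 and rpn-11, beside 3.05% of all end windows. It was in 3.68% of all 2742 summit windows and in 1.90% of the windows centred 300 bp to each side. TGTCAT, in the rpn-2 start window, was in 4.56% of summit windows and 4.76% of flanks, and TTCCCGCC, in the rpn-11 start window, in 0.985% and 0.547%. CGAGACCC was in 2.70% of summit windows and 0.456% of the flanks, and CTGGCGCA in 2.33% and 0.0912%. ATGTGCAGG, in the pbs-1 start window, was also in the pbs-2 end window. It was in 13 of the 2742 summit windows (0.474%), against 0.0182% of flanks. GCGCGAAA, also chosen after the sequences were seen, was in the end windows of pbs-2 and rpn-6.1, beside 1.70% of all end windows. It was in 1.93% of summit windows, against 0.310% of flanks. The motif in most of the members' end windows was TGATAA, in 4 of 20 (rpt-2, rpn-1, rpn-2 and rpn-5), against 7.24% of all end windows. Untrimmed, the members' end windows had a median G+C content of 41.6% (24.8% to 54.5%), against 40.6% at all end summits, and their start windows 45.5%, against 44.6% at all summits. The flank windows had a lower median of 35.6%, so shares in summit windows and flanks come from unlike base composition. The A+T-only motifs TATAAA and TTTTTTTT were in 5.73% and 4.89% of summit windows, against 11.5% of flanks for each. How far base composition accounts for such differences was not tested.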

How the data were processed

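Whole young adults were profiled by ChIP-seq in 2 biological replicates of 1 group, and the authors deposited peak lists on ce11. Per the deposited text descriptions, the lists derive from filtered alignments and a control alignment; the sources used here name no aligner or peak caller, and a possible control experiment was not analysed here. The deposited signal is the value of the authors' peak caller, in a unit that is not stated. The deposited score is the authors' IDR on an integer scale, which the authors' ranked list repeats as −log10 of the rate. The deposited summit offset was added to the peak start.

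Summits were placed on the Ensembl release 115 annotation of WBcel235 with Python 3.11.15, NumPy 2.4.6 and pandas 2.3.3. Exact intervals came from SciPy 1.17.1 and plots from Matplotlib 3.10.9. The main list was the conservative one (2742 peaks). The other series-wide list (2713), each replicate's thresholded list (1393 and 1276) and ranked lists (87350 regions together, 55886 and 53072 in the replicates) were also used. Replicate values are the highest ranked signal overlapping a peak by at least 1 bp. The code was checked on peaks planted at known places. Members with a summit were all named; of the others, the 5 highest and 3 lowest by mean ranked percentile at the start, and pathway genes with a start summit. Further members near a threshold and further pathway genes were named after their values were seen. The members and lists were chosen with earlier results of these data known, and no gene list was tested. The series-wide ranked list has 2 further columns of matched signals that do not name their replicate and were not used.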

Additional observations from a re-analysis of the deposited data

How the results depend on the processing

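Counts of members with a summit moved with the peak list and the zone. Without replicate 1 or replicate 2, that is in the other replicate's own shorter list, end summits ran from 5 to 10 members (core 3 to 6, regulatory 2 to 4), and start summits from 3 to 6 (core 0 to 4, regulatory 2 to 3). With the upper 50% of conservative peaks by signal, 12 members had an end summit (regulatory 6) and 5 a start summit (core 2). With a zone of 1 to 150 bp, 7 had an end summit (core 2, regulatory 5). Leaving out end summits within 500 bp of another gene's start gave 11 (core 2), and leaving out start summits past a coding gene's end gave 4 (core 2). In these settings the shares of all coding genes at ends were 2.75% (upper 50%), 2.31% (1 to 150 bp) and 2.71% (other starts left out). At starts they were 4.01% (upper 50%) and 4.75% (gene ends left out). The other series-wide list held 20 members at ends, against 4.56% of all coding genes, and 18 of them were shared with the conservative list. It added pas-6 and rpt-4 and lacked rpt-1 and rpt-3. The median start percentile ran from 74.1 without replicate 2 to 80.7 without replicate 1 for core genes and from 78.7 to 82.3 for regulatory genes, against 71.6 and 78.2 for the mean of the replicates. The median end percentile of core genes ran from 94.8 without replicate 1 to 97.0 without replicate 2, against 93.9. Start counts for all members were within 1.5 times the main count in 9 of 11 alternatives, and end counts in 5 of 10. Of the ranked regions, 124 had the lowest score of the conservative list without being in it. Restoring them left 7 members at starts and 20 at ends, against 6.52% and 4.57% of all coding genes. Settings added after the data were seen were the nearest gene end only, ranked percentiles at ends and a 50% overlap for end peaks. No paired analysis was possible because there was 1 group. Depth is unknown, and its limit on missing summits could not be assessed.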
